A study of Mus musculus with 800 samples.

Results

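Transcription factor genes of amacrine and horizontal cell development, 9 in all, were followed through single cells of the mouse retina at embryonic stage E15.5: Tfap2a, Tfap2b, Prdm13, Prox1, Onecut1, Onecut2, Onecut3, Lhx1 and Pax6. The 9 genes were chosen by name, and all 9 have a row among the 49585 gene rows of the deposited count table. They were read in 689 of 800 sorted cells, those with at most 20% of their counts in mitochondrially encoded genes, which leaves out 73 of 400 cells labelled Tomato+ and 38 of 400 labelled Tomato-. Both groups are E15.5 retinal cells of Sert-Cre animals on the C57BL/6 strain, taken from 30 retinas pooled before papain dissociation and cell sorting. Mothers were 12 to 30 weeks old. Sert-Cre drives Cre recombinase from Slc6a4, the serotonin transporter gene, so the label records present or past activity of that driver. The Tomato reporter allele and the sorting gate are not described in the sources used here. The labels tie no cell to an animal, so Tomato+ and Tomato- are 1 pool each, without replicates and without a test between them.

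Amacrine and horizontal cells are the interneurons of the inner and outer retina, and both arise from progenitors that pass through a state with Foxn4 and Ptf1a. Ptf1a is known to act upstream of Tfap2a and Tfap2b, which encode AP-2 factors of amacrine and horizontal precursors, and of Prdm13, which encodes a zinc finger protein of amacrine cells. Prox1 and Lhx1 are known for horizontal cells, and Onecut1 and Onecut2 for horizontal, cone and retinal ganglion cell (RGC) genesis, while Pax6 is used by progenitors, RGCs and amacrine cells alike. Pou4f2 encodes a POU factor that marks newly formed RGCs.

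Of these genes, Tfap2b and Prdm13 had the highest ratio of shared cells among the genes positive in at least 5% of Tomato- cells, as given below, and the 250 bases before the start of each are shown because they are the stretches nearest to the transcription start of that pair. Tfap2b lies on chromosome 1 from 19208914 to 19238576 on the plus strand, and Prdm13 on chromosome 4 from 21677480 to 21685963 on the minus strand (GENCODE vM21 on GRCm38). The sequences are RefSeq's for GRCm38.p6, at chr1:19211804-19212053 (plus strand) and chr4:21685964-21686213 (minus strand), each read 5′ to 3′ on the gene's strand, with any E-box (CANNTG) in capitals. The Tfap2b window ends at RefSeq's start, which lies inside the wider GENCODE span of the gene.
Tfap2b: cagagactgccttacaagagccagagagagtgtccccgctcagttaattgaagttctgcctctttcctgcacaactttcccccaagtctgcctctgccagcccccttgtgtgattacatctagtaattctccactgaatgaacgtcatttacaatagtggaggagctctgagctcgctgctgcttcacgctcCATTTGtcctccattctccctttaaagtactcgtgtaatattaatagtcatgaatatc
Prdm13: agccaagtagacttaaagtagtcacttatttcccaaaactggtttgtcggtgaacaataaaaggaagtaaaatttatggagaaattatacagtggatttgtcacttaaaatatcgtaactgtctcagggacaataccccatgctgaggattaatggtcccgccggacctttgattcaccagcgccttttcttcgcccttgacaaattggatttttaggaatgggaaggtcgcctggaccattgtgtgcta
The window of Tfap2b holds 1 E-box and that of Prdm13 holds 0. An E-box stands in 66.2% of 32851 RefSeq windows of the same length. On both strands, neither window holds the E-box CAGCTG (in 13% of windows, and counted within CANNTG), the AP-2 letters GCCNNNGGC (13.7%) or the Onecut letters ATCAAT (6.72%). Windows were found for 7 of the 9 genes.

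Total counts per kept cell ran from 9653 to 644293 in Tomato+ cells (median 271789) and from 16826 to 689788 in Tomato- cells (median 243409.5). Cells carry a title number, 1 to 10 in Tomato+ and 11 to 20 in Tomato-, and 1 of 40 title rows, each of which holds both groups. Levels are given as CPM, a gene's summed counts scaled to 1000000 counts of the group, and a cell is called positive for a gene at 5 counts or more. Brackets hold exact intervals at 95%, Poisson for CPM and Clopper-Pearson for shares, which cover counting error only. Log2 ratios are Tomato+ over Tomato- with 10 CPM added to each side, which understates the difference of low genes, and the SD is that of log2(CPM + 10) between title numbers. Slc6a4 stood at 103.8 CPM in Tomato+, against 0.546 CPM in Tomato-. Summed over its list, RGC markers came to 18000.2 CPM in Tomato+ and to 8259.8 CPM in Tomato-, and progenitor markers to 490.1 CPM in Tomato+ and to 4768.1 CPM in Tomato-. Amacrine markers other than the 9 genes came to 46.2 CPM in Tomato+ and to 195.6 CPM in Tomato-, and horizontal cell markers other than the 9 genes to 95.1 CPM in Tomato+ and to 52.8 CPM in Tomato-. Single genes made up much of these sums. Megf11 gave most of the horizontal sum, 84 CPM (Tomato+) against 30.4 CPM (Tomato-). Sept4 of the same list had the opposite order, 10.6 against 22.2 CPM. Of Megf11-positive Tomato- cells, 53.7% were Pou4f2-positive, beside 25.7% of the group. The largest parts of the amacrine sum of Tomato- cells were Foxn4 (68.9 CPM) and Gad2 (66 CPM). Neurogenic precursor markers came to 134.6 CPM in Tomato+ and to 1195.9 CPM in Tomato-. Microglial markers came to 4.03 CPM in Tomato+ and to 131.5 CPM in Tomato-, and erythroid markers to 1546.4 CPM in Tomato+ and to 3.72 CPM in Tomato-. Both higher sums were uneven: title numbers ran from 0.194 to 824.7 CPM for microglial markers in Tomato-. For erythroid markers in Tomato+ they ran from 1.68 to 8589.3 CPM. Photoreceptor precursor markers had a lowest and a highest title number of 51.3 and 377.7 CPM for Tomato+, against 333.9 and 1009.6 CPM for Tomato-. The part of these other cell types in the results was not tested. Low counts of abundant genes were found in cells that should lack them. Top2a, a mitosis gene, reached 5 counts in 4 of 98 Tomato+ cells (4.08%) and in 8 of 22 Tomato- cells (36.4%) of the same RGC-like cluster, at medians of 0 counts in Tomato+ and 1.5 counts in Tomato-. Sncg, an RGC gene, reached it in 70.2% of progenitor-like Tomato- cells, at a median of 6 counts. The part of such counts in the shares below was not tested, and shares at 20 counts or more are given beside some of them.

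Tfap2b and Prdm13 were lower in Tomato+ than in Tomato- cells, in level and in share of cells. Tomato+ cells held 11.9 CPM of Tfap2b (11.2 to 12.6), and Tomato- cells held 71.2 CPM of Tfap2b (69.5 to 72.9). By title number the lowest, median and highest levels were 0, 0.348 and 144.6 CPM for Tomato+, against 0.796, 67.1 and 147.6 CPM for Tomato-. Most Tomato+ title numbers were therefore near 0, but title number 10 reached the Tomato- range and Tomato- title number 15 was the lowest of its group at 0.796 CPM, so the groups overlapped. The log2 ratio was -1.89 (SD 1.20), and -2.74 without title number 10. Tfap2b was positive in 4 Tomato+ cells, or 1.22% (0.334 to 3.1), and in 39 Tomato- cells, or 10.8% (7.77 to 14.4). At 20 counts or more the shares were 1.22% for Tomato+ and 9.39% for Tomato-. In bulk sums such as these, fewer cells with the transcript and less transcript per cell cannot be told apart, and the shares are given for that reason.

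Prdm13 reached only 0.371 CPM in Tomato+ cells (0.254 to 0.523), against 15.6 CPM in Tomato- cells (14.8 to 16.4), a log2 ratio of -1.30 (SD 0.44). Title numbers gave 0, 0 and 2.21 CPM (lowest, median, highest) for Tomato+, against 0, 14 and 30.2 CPM for Tomato-. The groups overlapped only through the lowest Tomato- title number, which was at 0. Prdm13 was positive in 2 Tomato+ cells, or 0.612% (0.0742 to 2.19), with 13 and 10 counts. In Tomato- cells it was positive in 24, or 6.63% (4.29 to 9.7), with a median of 54 counts. In 22 of 40 title rows Prdm13 was lower in Tomato+, and 14 rows were equal.

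Tfap2a was rare in both groups. Its level was 2.38 CPM among Tomato+ cells (2.06 to 2.72) and 4.52 CPM among Tomato- cells (4.1 to 4.98), a log2 ratio of -0.23 that lay within its SD of 0.48. One Tomato+ cell held 96.1% of the Tomato+ counts of Tfap2a and was the only positive cell there, or 0.306% (0.00774 to 1.69). In Tomato- cells 11 were positive, or 3.04% (1.53 to 5.37). Without title number 2, which holds that Tomato+ cell, the log2 ratio was -0.53. Counting cells positive for at least 1 of Tfap2a, Tfap2b and Prdm13 gave 4 Tomato+ cells (1.22%, 0.334 to 3.1) and 49 Tomato- cells (13.5%, 10.2 to 17.5).

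**Figure D1:**
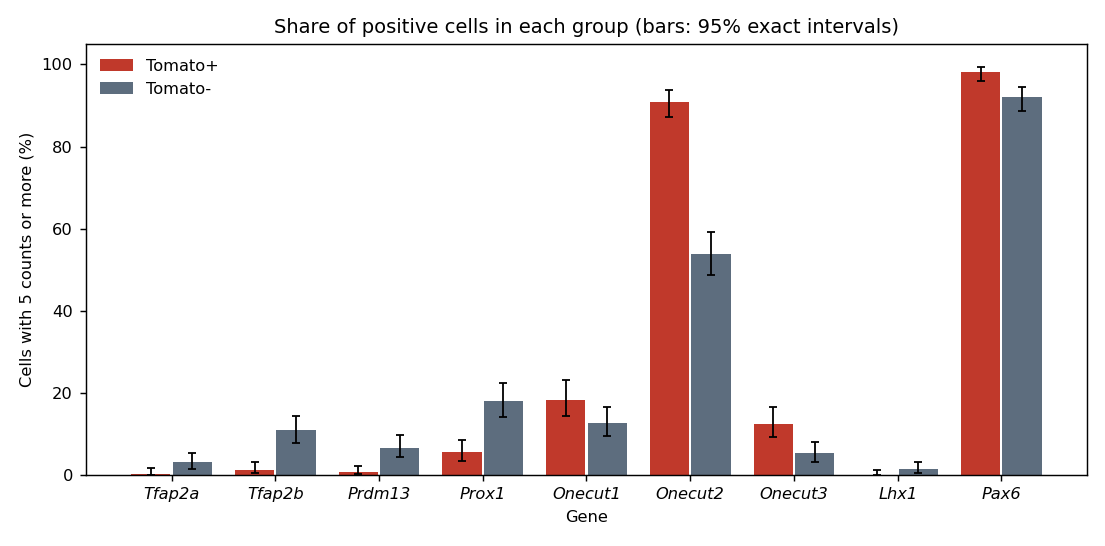
Share of kept cells with 5 counts or more of each gene (y axis, %), for Tomato+ cells (red) and Tomato- cells (grey), with exact 95% intervals. Tfap2a, Tfap2b, Prdm13, Prox1 and Lhx1 were positive in fewer Tomato+ than Tomato- cells, and Onecut1, Onecut2, Onecut3 and Pax6 in more.

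Prox1, which encodes a homeodomain factor of horizontal cells and some amacrine cells, stood at 8.05 CPM for Tomato+ (7.47 to 8.67), against 52.3 CPM for Tomato- (50.8 to 53.8). The lowest, median and highest title numbers held 0.13, 6.93 and 23.6 CPM of Prox1 in Tomato+, against 2.87, 49.7 and 93.9 CPM of Prox1 in Tomato-. The overlap came from 1 Tomato- title number, number 13, at 2.87 CPM, and the others all lay above the highest Tomato+ value. The log2 ratio was -1.79 (SD 0.73), and Prox1 was lower in Tomato+ in 34 of 40 title rows. Prox1 was positive in 18 Tomato+ cells, or 5.5% (3.29 to 8.56), against 65 Tomato- cells, or 18% (14.1 to 22.3).

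Lhx1, a LIM homeodomain gene needed for the placement of horizontal cells, was found in very few cells. A single count fell in Tomato+ cells (0.0116 CPM), against 470 counts of Lhx1 (5.03 CPM, 4.58 to 5.5) in Tomato- cells. The ratio of CPM was 0.0023, with a counting interval of 0.0000582 to 0.0129. Of the Tomato+ cells 0 were positive for Lhx1, which allows a share of up to 0.917% taken as 3 cells of all, and up to 1.12% by the exact interval, and of Tomato- cells 5 were, or 1.38% (0.45 to 3.19). The 5 cells came from title numbers 12, 14 and 18, and 5 of 10 Tomato- title numbers were at 0. Without title number 12, the log2 ratio of -0.59 (SD 0.49) became -0.33.

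All 3 Onecut genes were positive in more Tomato+ than Tomato- cells at 5 counts, and of their levels only that of Onecut2 differed by more than its SD. Onecut2 had the higher level in Tomato+, 552.4 CPM, against 362.9 CPM for Tomato-, a ratio of 1.52 (1.5 to 1.54) and a log2 ratio of 0.59 (SD 0.34). The lowest and highest title numbers held 407.4 and 647.5 CPM of Onecut2 for Tomato+, against 191.5 and 558.9 CPM for Tomato-, with overlap. Onecut2 was positive in 90.8% of Tomato+ cells (87.2 to 93.7), against 53.9% of Tomato- cells (48.6 to 59.1). Onecut2 was higher in Tomato+ in 31 of 40 title rows.

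Onecut1 gave opposite orders by level and by share. Tomato+ cells held 16.2 CPM of Onecut1 (15.3 to 17), and Tomato- cells 28.1 CPM (27 to 29.2), a log2 ratio of -0.54, within its SD of 0.58. Onecut1 was positive in 60 Tomato+ cells, or 18.3% (14.3 to 23), against 46 Tomato- cells, or 12.7% (9.46 to 16.6). The median in Onecut1-positive cells was 13 counts for Tomato+ and 28 counts for Tomato-, and at 20 counts or more the shares were 7.34% for Tomato+ and 7.46% for Tomato-. Onecut1 thus had more positive cells in Tomato+, with fewer counts each. Without title number 12, which stood at 83.7 CPM, the log2 ratio was -0.31.

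Onecut3, the remaining member of the family, measured 24 CPM for Tomato+ (23 to 25.1) and 16.5 CPM for Tomato- (15.6 to 17.3), a log2 ratio of 0.36 within its SD of 0.79. It was positive in 41 Tomato+ cells, or 12.5% (9.15 to 16.6), against 19 Tomato- cells, or 5.25% (3.19 to 8.08). One Tomato- cell held 28.5% of the Tomato- counts of Onecut3. The ratio was 0.66 without title number 13 and 0.21 without title number 7. Cells positive for 0 of the 3 Onecut genes made up 8.26% of Tomato+ and 40.9% of Tomato-, and 13 Tomato+ cells (3.98%) and 2 Tomato- cells (0.552%) were positive for all 3.

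Pax6, the paired homeodomain gene, was detected almost throughout. Its level came to 720.4 CPM for Tomato+ (714.7 to 726), against 892.1 CPM for Tomato- (886.1 to 898.2), a log2 ratio of -0.30 (SD 0.19). The lowest, median and highest title numbers held 642.8, 704.7 and 861.1 CPM of Pax6 for Tomato+, against 743.2, 839.9 and 1088.9 CPM for Tomato-, with overlap. Pax6 was positive in 98.2% of Tomato+ (96 to 99.3) and 92% of Tomato- cells (88.7 to 94.6), so share and level again ran in opposite orders. With a share this close to all cells, Pax6 could not be used to tell cells apart by detection.

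**Figure D2:**
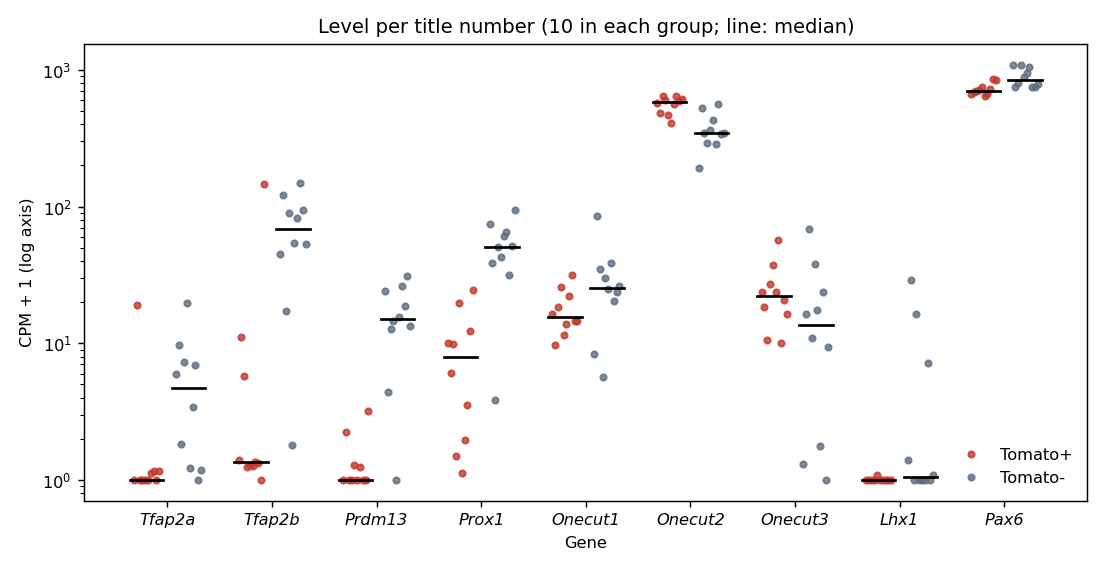
Level of each gene in every title number, as CPM + 1 on a log axis, for 10 Tomato+ (red) and 10 Tomato- (grey) title numbers, with the median as a line. The ranges overlapped for all 9 genes, and the single high Tomato+ point of Tfap2b is title number 10, at 144.6 CPM.

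Of the 9 genes, 7 were positive in at least 5% of the cells of either group and so entered the count over all genes, and Tfap2a and Lhx1 did not. Of these 7, 3 (Tfap2b, Prdm13 and Prox1) had a log2 ratio at or below -1, where 6.72% of 10396 genes did. Tfap2b (1.22% of Tomato+ and 10.8% of Tomato- cells) and Prdm13 (0.612% and 6.63%) passed the limit of 5% only through Tomato-. Entry through the group where a gene is higher favours a low ratio, so this count is a description and not a test. In either direction, the same 3 of 7 were at least 1 away from 0, where 9.72% of genes were. The median log2 ratio was -0.54 over the 7 genes and -0.06 over all genes. With edgeR's TMM factors all log2 CPM ratios shift by 0.12 and with DESeq2's median-of-ratios factors by 0.14, and with either of them 3 genes were again at or below -1. With each cell thinned to 94783 counts, Tfap2b had at least 1 count in 4.08% of Tomato+ (2.13 to 7.02) and 16.9% of Tomato- cells (13 to 21.4), with 33 Tomato+ and 36 Tomato- shallower cells left out. On the same measure Prdm13 gave 1.36% for Tomato+ and 8.59% for Tomato-, Prox1 9.18% for Tomato+ and 24.5% for Tomato-, and Onecut2 94.2% for Tomato+ and 70.6% for Tomato-. At full depth, shares with at least 1 count were 7.95% for Tomato+ and 21.5% for Tomato- for Tfap2b, and the order was the same in these 4 genes.

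Within Tomato- cells, co-detection was asked of each of the 36 pairs of genes: how many cells were positive for both, against the number given by the product of the 2 shares. Among the 7 more frequent genes, the highest ratio was that of Tfap2b and Prdm13. Of all Tomato- cells, 17 were positive for both, against 2.59 from the product of shares, a ratio of 6.57. These 17 cells were 43.6% (27.8 to 60.4) of the Tfap2b-positive and 70.8% (48.9 to 87.4) of the Prdm13-positive cells, and they came from 8 of 10 title numbers and 14 of 40 title rows. All 17 were also positive for Onecut2, and 10 were positive for Prox1. Their median total was 255365 counts, against 227588.5 in cells positive for Tfap2b only and 206650 in cells positive for Prdm13 only.

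Tfap2b was also found with its paralogue and with Prox1. Tfap2a and Tfap2b shared 8 cells against 1.19 from the product (ratio 6.75), which was 72.7% (39 to 94) of Tfap2a-positive cells and 20.5% of Tfap2b-positive cells. Tfap2b and Prox1 shared 20 cells against 7 (ratio 2.86), or 51.3% (34.8 to 67.6) of Tfap2b-positive and 30.8% (19.9 to 43.4) of Prox1-positive cells. Prdm13 and Prox1 shared 11 cells against 4.31 (ratio 2.55), and 4 cells were positive for Tfap2a, Tfap2b and Prdm13 together. Tfap2b met Onecut1 in 10 cells against 4.96 (ratio 2.02) and Onecut3 in 5 against 2.05 (ratio 2.44), both close to the limit of 2.

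Of all 36 pairs, 16 had a ratio of 2 or more, and 16 did with the expected numbers summed within 4 strata of total counts. Of those pairs, 11 include Tfap2a or Lhx1, which were positive in 11 and 5 cells. Over the 21 pairs of the 7 genes positive in at least 5% of Tomato- cells, 5 pairs (23.8%) reached 2, where 3.36% of 43566445 pairs of genes of that kind did. Pairs with Pax6 or Onecut2 stand among the 36 and the 21 but could not reach 2, as given below. The same holds for widely detected genes among all pairs. With Tfap2b as partner, 1.68% of 9334 genes reached 2, and with Prdm13 2.69%. Requiring 1 count instead of 5 left 9 pairs of 36, and 20 counts gave 18.

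Pairs of Onecut genes and pairs with Pax6 all had ratios below 2. The ratio cannot pass 1 over the larger of the 2 shares. Pairs with Pax6 could therefore not exceed 1.09, nor pairs with Onecut2 1.86, so for them this outcome was fixed. Onecut1 and Onecut2 shared 29 Tomato- cells against 24.8 (ratio 1.17). Onecut2 and Onecut3 shared 17 cells against 10.2 (1.66, and 1.56 within depth strata). Onecut1 and Onecut3 shared 2 cells against 2.41 (0.828), and Prox1 and Onecut3 2 cells against 3.41 (0.586), the lowest ratio of the 36. Prdm13 met Onecut2 in 24 of 24 cells, yet the ratio was 1.86, since Onecut2 was positive in 53.9% of the group. All 24 Prdm13-positive, 39 Tfap2b-positive, 11 Tfap2a-positive and 5 Lhx1-positive Tomato- cells were Pax6-positive. Of the Onecut1-positive cells 40 of 46 were, or 87% (73.7 to 95.1). The group's share of 92% lay inside the exact interval of each of these genes.

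**Figure D3:**
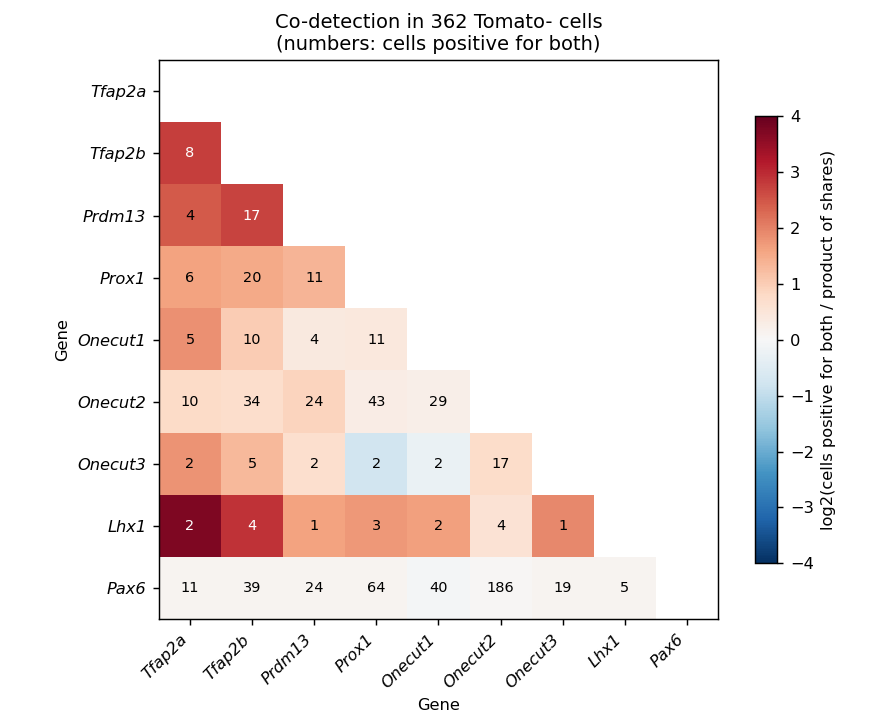
Co-detection of the 9 genes in Tomato- cells: colour gives the log2 of the cells positive for both over the number from the product of shares, and numbers give the cells positive for both. Tfap2a, Tfap2b, Prdm13 and Prox1 form the red corner at the upper left, with 17 cells shared by Tfap2b and Prdm13, and the Pax6 row is near white. Ratios with Pax6 cannot exceed 1.09.

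Some of the cells already counted in these pairs are described here one by one, as CPM of the cell's own total. They were picked for their counts of Lhx1 or Prdm13 and add no support to the ratios. The Tomato- cell with the most Lhx1 held 2038.8 CPM of it, together with 1434.7 CPM of Tfap2b, 1368.6 CPM of Prox1, 6144.8 CPM of Onecut2 and 1151.6 CPM of Gad2, which encodes a GABA-synthesising enzyme. A further Lhx1-positive cell, from title number 14, held 686.6 CPM of Lhx1 with 2442.9 CPM of Tfap2b, 250.9 CPM of Tfap2a, 743.9 CPM of Prox1 and 2011.5 CPM of Onecut2. The pair of Lhx1-positive cells from title number 18 held 1863.3 and 3563.5 CPM of Tfap2b and 3114.5 and 10062.6 CPM of Onecut2, and 1 of them also 503.7 CPM of Onecut1. In these 4 cells Tfap2b and Onecut2 were both present. The remaining Lhx1-positive cell, with 29 counts of Lhx1, had 0 counts of Tfap2b and Onecut2, with 1506.7 CPM of Pou4f1 and 925.2 CPM of Isl1, both RGC genes.

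Among Prdm13-positive Tomato- cells, the one with the most counts held 838.1 CPM of Prdm13 with 835.1 CPM of Tfap2b, 2698.6 CPM of Onecut2, 4884.6 CPM of Pax6 and 838.1 CPM of Gad2. Other cells high in Prdm13 lacked Tfap2b or nearly so. One with 671.3 CPM of Prdm13 held 0 CPM of Tfap2b, and one with 594.4 CPM held 11.3 CPM. Ptf1a was positive in 13 of the 24 Prdm13-positive cells (54.2%), in 12 of 39 Tfap2b-positive cells (30.8%), in 6 of 65 Prox1-positive cells (9.23%) and in 20 of all Tomato- cells (5.52%). Foxn4, which acts before Ptf1a in progenitors, was positive in 12.5% of Prdm13-positive, 15.4% of Tfap2b-positive and 19.3% of all Tomato- cells. Mki67 and Top2a were both positive in 10 of 24 Prdm13-positive cells (41.7%) and in 49.2% of all Tomato- cells. One Prdm13-positive cell held 1487 CPM of Mki67, 2114.2 CPM of Top2a, 405.5 CPM of Foxn4, 143.3 CPM of Prdm13 and 108.1 CPM of Tfap2b. Among the Tfap2b-positive cells Mki67 and Top2a were both positive in 15 of 39 (38.5%).

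The few Tomato+ cells with these genes were looked at one by one. The 4 Tfap2b-positive Tomato+ cells held 3748.9, 1244, 252.4 and 147.3 CPM of Tfap2b, and all 4 had 0 counts of Slc6a4. Of all kept Tomato+ cells, only 50.8% had at least 1 count of Slc6a4. The first and second of the 4 Tfap2b-positive cells, both from title number 10, held 423.5 and 288.1 CPM of Prox1, 4517.5 and 1847.4 CPM of Pax6, 0 and 3.4 CPM of Pou4f2 and 7.8 and 3.4 CPM of Isl1. Title number 10 had the lowest median total of the 20 title numbers before filtering, 127257 counts, and with title number 8 the highest median mitochondrial shares, 10.2% and 10.3%. Without title numbers 8 and 10 the log2 ratio of Tfap2b was -2.72, against -1.89 with them. The cell with 252.4 CPM of Tfap2b also held 452 CPM of Tfap2a, 29.8 CPM of Prdm13, 1406.5 CPM of Onecut2 and 520.8 CPM of Isl1, and it was positive for 8 of the 9 genes at a total of 435842 counts. No doublet caller was run, so whether this well held 1 cell was not tested. In Tomato+ cells 12 of 36 pairs reached a ratio of 2, all of them with Tfap2a, Tfap2b or Prdm13, which rest on 1, 4 and 2 positive cells. Onecut1 and Onecut3 shared 13 Tomato+ cells against 7.52 (ratio 1.73), from 8 title numbers.

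Sharing with Pou4f2 was asked next, since RGCs arise beside amacrine and horizontal cells at this age. Pou4f2 was positive in 64.8% of Tomato+ cells (59.4 to 70), against 93 Tomato- cells, or 25.7% (21.3 to 30.5). In the progenitor-like Tomato- cluster, which should lack it, 3 cells or 2.63% were positive. The genes differed in how far their positive Tomato- cells were also Pou4f2-positive. Prdm13 had the lowest share among genes with over 10 positive cells, 3 of 24 cells or 12.5% (2.66 to 32.4), which was 0.487 times the share of the group. Tfap2b followed with 9 of 39 cells, or 23.1% (11.1 to 39.3). Prox1 had the highest, 28 of 65 cells or 43.1% (30.8 to 56), which was 1.68 times the group's share, and 1.49 times within depth strata. Onecut2 had 70, or 35.9% (29.2 to 43.1), Onecut1 16 of 46, or 34.8% (21.4 to 50.2), and Onecut3 7 of 19, or 36.8% (16.3 to 61.6).

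Prdm13 was the only one of the 7 genes at or below 0.5 times the group's share, where 4.16% of 9334 genes were, and the median ratio over those genes was 1.26. That call rested on 3 cells: the ratio of Prdm13 was 0.586, 0.523, 0.518, 0.568, 0.513, 0.588 and 0.508 without title numbers 11, 12, 13, 14, 16, 18 and 19 in turn, and 0.568 at 20 counts or more, 0.702 at 10 CPM or more and 0.866 at 1 count or more. It was 0.202 without title number 17 and 0.363 without title number 20, which hold the 3 cells. Those 3 cells were positive for Tfap2b as well. The interval for Prdm13 held the group's share of 25.7%, and the interval for Prox1 did not. The median gene also lay above that share, at 1.26 times it, and how many genes reach the ratio of Prox1 was not counted. The ratio of Prox1 was 1.55 at 20 counts or more, 1.34 at 10 CPM or more, 1.29 with thinned cells and 1.18 at 1 count or more.

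Depth differed with the sharing. Tomato- cells positive for both Tfap2b and Pou4f2 had a median total of 367598 counts, against 227588.5 in those positive for Tfap2b only. For Prox1 the medians were 322178 and 246075, and for Onecut1 372469.5 and 222558.5. Prdm13 ran the other way, with 247408 and 255365. Cells positive for Pou4f2 and not for Prox1 had a median of 332260. Within the depth strata the ratios were 0.865 for Tfap2b, 0.486 for Prdm13, 1.49 for Prox1, 1.21 for Onecut1 and 1.31 for Onecut2.

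Counts of both transcripts were then read in the cells positive for both. The 28 Tomato- cells with Prox1 and Pou4f2 held medians of 48.5 counts of Prox1 and 69.5 of Pou4f2, and the 37 with Prox1 only a median of 48 counts of Prox1. These 28 cells came from 9 title numbers and 6 clusters, 19 of them were Onecut2-positive and 5 Tfap2b-positive. The 9 cells with Tfap2b and Pou4f2 held a median of 85 counts of Pou4f2. One cell held 291.1 CPM of Prdm13, 546.8 CPM of Pou4f2, 2633.3 CPM of Isl1 and 24.5 CPM of Tfap2b, and another 234.4 CPM of Prdm13, 921.6 CPM of Pou4f2, 565.9 CPM of Prox1 and 1632.9 CPM of Isl1. The remaining cell with Prdm13 and Pou4f2 held 5 counts of Pou4f2, and the cell with Lhx1 and Pou4f2 held 6, at or just above the limit of 5.

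In Tomato+ cells, 11 of 18 Prox1-positive cells were Pou4f2-positive, or 61.1% (35.7 to 82.7), beside 64.8% of the group. Onecut1 had 44 of 60, or 73.3% (60.3 to 83.9), Onecut3 30 of 41, or 73.2% (57.1 to 85.8), and Onecut2 66.3% (60.6 to 71.7). All 4 intervals held the share of the group.

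**Figure D4:**
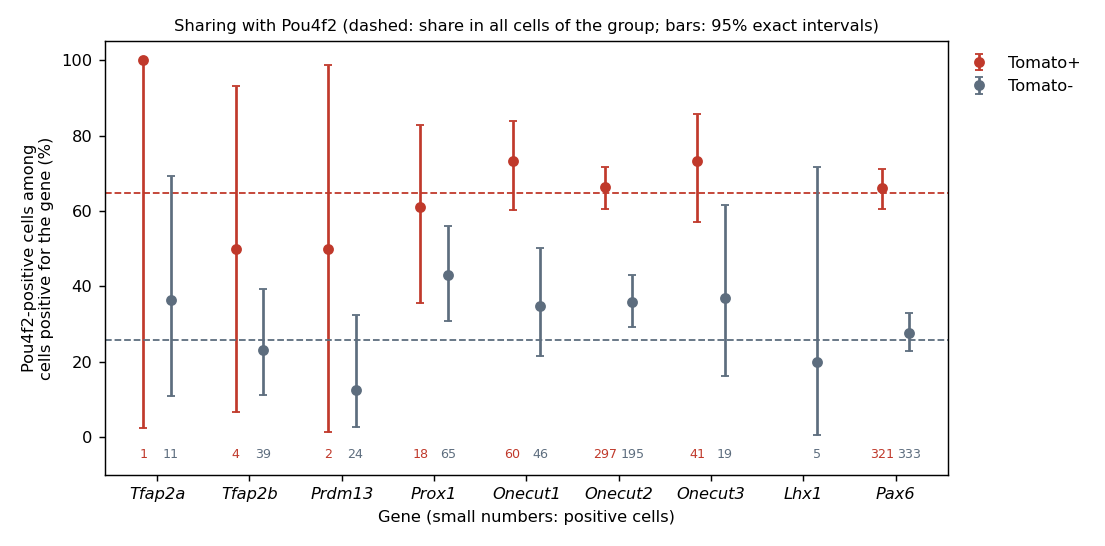
Share of Pou4f2-positive cells among the cells positive for each gene (y axis, %), in Tomato+ (red) and Tomato- (grey) cells with exact 95% intervals; dashed lines give all cells of the group, 64.8% and 25.7%. In Tomato- cells Prdm13 is lowest of the genes with over 10 positive cells, at 12.5%, and Prox1 highest, at 43.1%.

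Restricting both groups to Pou4f2-positive cells, 64.8% of Tomato+ and 25.7% of Tomato-, gave log2 ratios of the same sign as in the full groups. Those of Tfap2a (-0.51, SD 0.86), Onecut1 (-0.56, SD 1.01), Lhx1 (-0.78, SD 0.79) and Pax6 (-0.41, SD 0.43) lay within their SD, and that of Prdm13 was -0.76 (SD 0.67), no longer at or below -1. There Prox1 stood at 6.26 CPM for Tomato+, against 64.1 CPM for Tomato-, a log2 ratio of -2.19 (SD 0.87), and 5.19% of the Tomato+ cells and 30.1% of the Tomato- cells were positive for it. Tfap2b gave 2.9 CPM for Tomato+ and 28.2 CPM for Tomato-, a log2 ratio of -1.57 (SD 1.00). Onecut2 gave 577.8 CPM for Tomato+ and 368.1 CPM for Tomato- (log2 ratio 0.64, SD 0.63), positive in 92.9% of those Tomato+ and 75.3% of those Tomato- cells. Onecut3 gave 26.5 CPM for Tomato+ and 10.2 CPM for Tomato- (log2 ratio 0.85, SD 0.76). The restriction did not leave RGC-like cells alone. Of the Pou4f2-positive Tomato- cells, 26, 5, 4 and 3 lay in clusters 4, 6, 8 and 1, which are not named RGC-like below. Of the Tomato+ ones, 3 lay in cluster 4, 1 in cluster 8 and 0 in clusters 1 and 6. Among Tomato- cells of cluster 4, 37.7% were positive for Prox1 and 26.1% for Tfap2b. The part of this imbalance in the ratios was not tested. Within Tomato- cells, Prox1 was positive in 30.1% (21 to 40.5) of Pou4f2-positive and 13.8% (9.87 to 18.5) of the other cells, and Prdm13 in 3.23% (0.67 to 9.14) and 7.81% (4.9 to 11.7).

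The genes most like each member were ranked by Pearson's r of log2(CPM + 10) over the kept Tomato- cells (n = 400 less 38), which share libraries and depth, so r is given as a description. For Tfap2b these were Nrxn3 (r = 0.53), which encodes a neurexin of synapses, Prdm13 (0.47), Onecut2 (0.40), Ptf1a (0.35) and Prox1 (0.33). For Prdm13 they were St18 (0.53), Ptf1a (0.50), Tfap2b (0.47), Nrxn3 (0.40) and Onecut2 (0.33). Tfap2a (0.44), Prox1 (0.33) and Lhx1 (0.36) each had Tfap2b as their nearest gene. Nrxn3 was positive in 19 of 39 Tfap2b-positive, 13 of 24 Prdm13-positive and 4 of 5 Lhx1-positive cells, and in 37 of all Tomato- cells. Nrxn3 itself stood at 40.2 CPM for Tomato+ and 31.1 CPM for Tomato-, so unlike Tfap2b it was not lower in Tomato+.

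The Onecut genes had other neighbours. For Onecut1 they were Pcdh17 (0.29), Otx2 (0.28), Prdm1 (0.27), Olig2 (0.25) and Ube2d2a (0.25); Otx2 and Prdm1 are known from photoreceptor precursors and Olig2 from dividing neurogenic progenitors. Otx2 was positive in 23 of 46 Onecut1-positive Tomato- cells (50%), against 23.2% of all Tomato- cells. In Tomato+ cells Otx2 was positive in 1 of 60 Onecut1-positive cells (1.67%), close to the 1.22% of all Tomato+ cells. Onecut3 had Cnr1 (0.38), Pcdh9 (0.35) and Ubash3b (0.32) nearest, all 3 higher in Tomato+, with Ubash3b at 350.9 CPM for Tomato+, against 62.8 CPM for Tomato-. Onecut2 had Nrxn3 (0.43) and the pan-neuronal genes Celf4 (0.42), Elavl3 (0.42), Nrep (0.41) and Dpysl3 (0.41). Of the genes near Pax6, Prdm13 was first (0.28) and no other r reached that.

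Other genes of the amacrine and horizontal programme were read from a list of 40 names, of which 39 have a row and 27 were positive in enough cells to be compared. Of these 27, 15 were at least 1 away from 0 in log2 ratio, 12 of them lower and 3 higher in Tomato+, where 9.72% of all genes were that far from 0 and 6.72% were lower. The list's median was -0.86, against -0.06 over all genes. Some list genes, such as Foxn4 (0.306% of Tomato+ and 19.3% of Tomato- cells), entered only through Tomato-, which favours a low ratio. Foxn4 stood at 0.394 CPM for Tomato+ and 68.9 CPM for Tomato- (log2 ratio -2.92), and Ptf1a at 0.533 CPM for Tomato+ and 10.8 CPM for Tomato- (-0.98). Gad2 stood at 17.8 CPM for Tomato+ and 66 CPM for Tomato- (-1.45). The 3 higher in Tomato+ were Ebf1 (log2 ratio 1.16), Ebf3 (1.01) and Megf11 (1.22), and Ebf1 and Ebf3 are also RGC genes. Some list genes were at or near 0. Slc32a1, the vesicular GABA transporter, had 0 counts in Tomato+ and 0.653 CPM in Tomato-, Calb1 0.487 CPM in Tomato+ and 0.225 CPM in Tomato-, and Neurod6 and Gja10 0 counts in both groups. With Tfap2b, 1 of the 27 (Ptf1a) was co-detected at a ratio of 2 or more, where 1.68% of all genes were, and with Prdm13 3 were, where 2.69% of all genes were. Of the 27, 5 were at or below 0.5 times the group's Pou4f2 share, where 4.16% of all genes were.

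Clustering all 689 kept cells, with the 9 genes and Pou4f2 left out of the genes used, gave 9 clusters, in which the positive Tomato- cells were counted as a description. From markers, clusters 0, 2, 3, 5 and 7 were RGC-like, although cluster 7 had Barhl2 of the amacrine list among its leading genes. Cluster 7 also scored on 4 of 12 progenitor markers, beside 11 of 14 RGC markers. Cluster 1 was progenitor-like and cluster 6 neurogenic precursor-like. Cluster 6 scored on 11 of 11 neurogenic precursor and 10 of 12 progenitor markers, and Mki67 was positive in 56 of its 56 Tomato- cells. Cluster 4 scored highest for photoreceptor precursors, with 4 of 11 markers, beside 4 of 12 progenitor, 1 of 12 amacrine and 0 of 4 horizontal markers. Cluster 8 scored highest for progenitors, with 9 of 12 markers, beside 5 of 14 RGC markers. Clusters 4 and 8 scored on several lists and are left unnamed. Other clusters scored on further lists too, and were named by their highest share of markers. Cluster 4, led by Tfap2b, Neurod4, Dcc and Neurod1, held 12 Tomato+ and 69 Tomato- cells. In its Tomato- cells Tfap2b was positive in 18 (26.1%), Prdm13 in 15 (21.7%), Prox1 in 26 (37.7%), Tfap2a in 7 (10.1%), Lhx1 in 3 (4.35%) and Pou4f2 in 26 (37.7%). It held 15 of the 24 Prdm13-positive and 18 of the 39 Tfap2b-positive Tomato- cells, and 7 and 10 more lay in progenitor-like cluster 1, where they were 6.14% and 8.77% of the Tomato- cells. Prdm13 was positive in 0 of 56 neurogenic precursor-like Tomato- cells of cluster 6, where Onecut1 was positive in 13 (23.2%). Onecut2 was positive in 24.6% of the progenitor-like Tomato- cells, 42.9% of those in cluster 6, 66.7% of those in cluster 4 and between 66.7% (cluster 5) and 90.9% (cluster 0) of those in the RGC-like clusters. Among Tomato- cells of RGC-like cluster 7, Prox1 was positive in 9 of 36 (25%), and Onecut3 in 0.

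**Figure D5:**
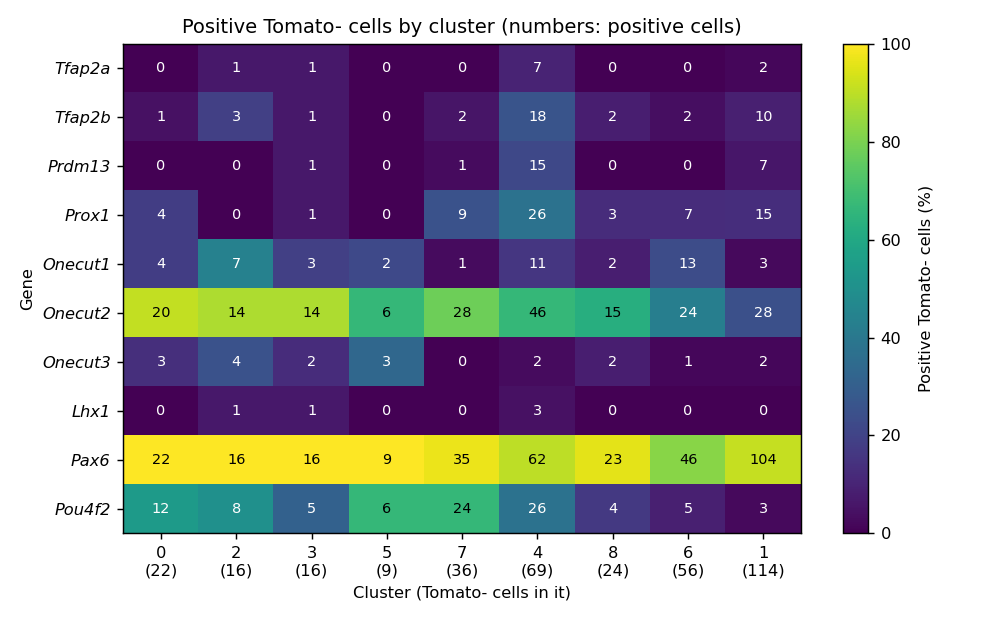
Share of positive Tomato- cells (colour, %) and number of positive cells (figures) for the 9 genes and Pou4f2 in each cluster, with the cluster's Tomato- cells in brackets; clusters 0, 2, 3, 5 and 7 are RGC-like, 6 neurogenic precursor-like, 1 progenitor-like, and 4 and 8 unnamed. Of 24 Prdm13-positive cells, 15 sit in cluster 4 and 7 in cluster 1, and Onecut2 is least frequent in cluster 1.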

How the data were processed

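Single-cell libraries of 400 Tomato+ and 400 Tomato- cells were read from the deposited table of counts per gene and cell, whole numbers that the authors had not normalised. The labels name SmartSeq2, and the submitters' processing notes name Seurat 2.3, R 3.4.4 and mm10. The aligner, the counter and whether counts are reads or molecules are not given in the sources used here, and the median nonzero count was 16. The table has 801 columns, 1 of which fits no label and was left aside. The 186 rows that share a symbol stayed in totals and were not named. There were 0 identical cell columns. The mitochondrial limit kept 327 Tomato+ and 362 Tomato- cells. Depth per cell sets the precision, and intervals cover counting error only.

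CPM, shares and ratios were computed with numpy 2.4.6, pandas 2.3.3 and scipy 1.17.1, after being tested on simulated data. Clusters came from scanpy 1.11.5 (2000 variable genes, 20 components, 15 neighbours) and leidenalg 0.10.2 at resolution 1. edgeR 4.0.16 and DESeq2 1.42.0 in R 4.3.3 gave only scaling factors. No doublet caller was run, no cells were thinned except where said, and no test was possible with 1 pool per group. The genes, lists and rules were chosen with earlier results of these data known. Named are the 9 genes, Pou4f2, the 5 genes most correlated with each member, and list genes with the highest levels or largest ratios; others, and single cells, were chosen after their values were seen. Alternatives changed the scaling, pseudocount, mitochondrial limit, positive threshold, depth and title numbers.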

Additional observations from a re-analysis of the deposited data

Results flagged for a closer look

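Of 18 sets of 10 title numbers (9 genes in 2 groups), 5 had a highest value whose gap to the next, over the whole range, passed Dixon's 95% critical value, where chance gives about 1 set in 20 for normally spread values. That share does not hold for sets that are mostly 0, and with a single count in 1 of 10 title numbers, as for Lhx1, the outcome is fixed. In Tomato+ cells, Tfap2a stood at 18.1 CPM in title number 2 and at most at 0.17 CPM in the others, from 1 positive cell. In Tomato- cells, Tfap2a stood at 18.8 CPM in title number 15, next to 8.65 CPM, again from 1 positive cell. Tfap2b stood at 144.6 CPM in Tomato+ title number 10, next to 10.1 CPM, from 2 positive cells with 851 counts in that title number. Onecut1 stood at 83.7 CPM in Tomato- title number 12, next to 37.5 CPM, from 5 positive cells. Lhx1 stood at 0.0952 CPM in Tomato+ title number 5, which is 1 count, with 0 in the others.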

How the results depend on the processing

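Over the alternatives run, 3 of the 7 genes compared with all genes had a log2 ratio at or below -1 under every setting, and 5 genes had a lower positive share in Tomato+ under every setting except 20 counts or more, where Onecut1 made 6. With a pseudocount of 1 CPM the log2 ratio was -3.60 for Prdm13, -2.56 for Prox1 and -2.57 for Lhx1; all other log2 ratios, over all 9 genes, moved by less than the SD between title numbers, and leaving out title numbers one at a time gave -2.74 to -1.74 for Tfap2b, -1.38 to -1.21 for Prdm13 and -1.91 to -1.64 for Prox1. Leaving out the cell with the most counts in each group, an alternative chosen after seeing the data, gave -2.20 for Tfap2b, -1.15 for Prdm13 and -0.37 for Tfap2a. Pairs with a ratio of 2 or more numbered 9 with 1 count as the limit, 9 with thinned cells and 14 to 16 without single title numbers, and the cause was not tested. Genes at or below 0.5 times the group's Pou4f2 share numbered 2 with at most 10% mitochondrial counts (Prdm13 and Lhx1), 0 with 1 count as the limit, 0 with thinned cells and 0 to 1 without single title numbers; the gene was Lhx1 and not Prdm13 at 20 counts, at 10 CPM and without title number 12. No paired analysis was possible because no result comes from a test and the groups share no title number; title rows hold both groups, and directions within them were only counted. Depth and the number of cells limit the rare genes, with 5 Lhx1-positive and 11 Tfap2a-positive Tomato- cells.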
